A study of Mus musculus with 6 samples.

Results

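The cells described here were Ebf1-/- pre-pro-B progenitors of a mouse cell line that carried an empty retroviral vector, MigR1, and so had received neither EBF1 nor Pax5. They were read from the 2 Control arrays among the 6 arrays of the series, chosen by the label for the transduction and not by any measured value. The level and the rank of genes were taken within each of these arrays, and no contrast with another group was made. The other 4 arrays held the same line with a MigY-EBF1 vector or a MigR-Pax5 vector, 2 arrays each, and the genotype Ebf1-/- is shared by all 6. Per the labels' protocols the line was kept on OP9 cells, a mouse bone marrow stromal line, and was fed with stem cell factor, FLT3 ligand and IL-7, each at 10 ng per ml. Cells were sorted, and RNA was taken 24 hours after transduction. The baseline is therefore that of a cultured, infected line under constant growth factor supply, and not of progenitors taken from bone marrow. The labels do not give the number of animals or clones behind the line. The labels number the Control arrays 1 and 2 without saying whether they came from separate transductions, so the spread between them may be technical, and 2 arrays limit the precision of every value. In RNA pooled from many cells, as here, fewer cells of a type and less RNA per cell cannot be told apart.

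Pre-pro-B cells are the earliest bone marrow progenitors directed towards the B lineage. They depend on the receptors for stem cell factor, FLT3 ligand and IL-7, and on regulators such as E2A, Ikaros and PU.1 that act before EBF1. EBF1 then switches on the genes of the pre-B cell receptor together with Pax5, and Pax5 commits the cell to the B lineage. Progenitors that lack EBF1 are known to stop at this stage and to keep the ability to form other blood cells.

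All values are log2 expression values after RMA, as the authors deposited them. Each of 20586 genes was read from 1 probe set, and its percentile is its place among these genes on the same array. A percentile orders signals and not amounts of RNA, because probes for different genes differ in how brightly they report. RMA values carry no detection call, so the 1044 olfactory receptor genes, which olfactory neurons are known for, served as a yardstick. Their 95th percentile was 3.52 on Control 1 and 3.38 on Control 2, and 12419 genes (60.3%) lay above it on both arrays. This level was lenient, since 14 of 42 listed genes of other tissues, such as liver, pancreas and retina, passed it too. A gene was therefore also counted in the top 25% when it exceeded the 75th percentile of all genes, 6.84 on Control 1 and 6.85 on Control 2, on both arrays. This held for 5042 genes (24.5%) and for 0 of the 42 genes of other tissues. At or below the olfactory receptor level on both arrays lay 7569 genes (36.8%), and 598 passed it on 1 array only.

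The 2 arrays ranked genes almost alike. Across genes, which are not independent replicates, their values correlated at Pearson r = 0.9978 and Spearman rho = 0.9951, and their differences had an SD of 0.158. The arrays differed by a median of 1.15 percentile points per gene and by 6.36 points or less for 95% of genes. Only 1 gene differed by more than 1 on the log2 scale, and 172 (0.836%) by more than 0.5. Of the 515 distinct listed genes read, Ighm and Igll1 differed by more than 0.5, and the median gap was 0.07. The gene lists covered receptors, regulators, lineages and basic cell functions in 20 groups, and the percentiles given below are means of the 2 arrays unless an array is named.

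**Figure D1:**
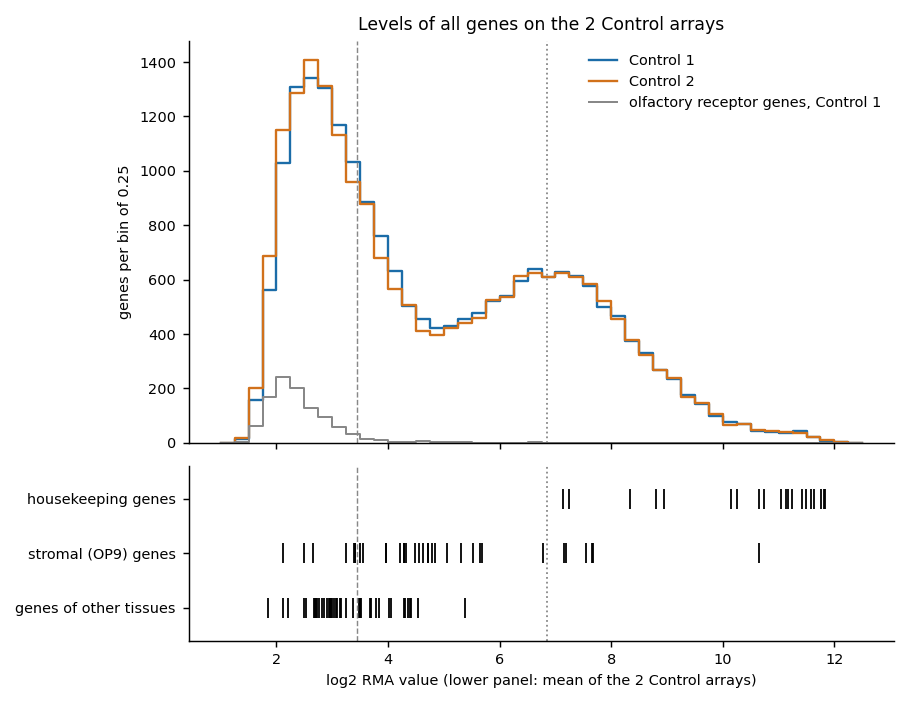
Upper panel: number of genes per bin of 0.25 against the log2 RMA value, for all 20586 genes on Control 1 (blue) and Control 2 (orange) and for the olfactory receptor genes on Control 1 (grey). Lower panel: each tick is the mean of the 2 Control arrays for a member of 3 gene lists. The dashed line is the mean over the 2 arrays of the olfactory receptor level and the dotted line that of the 75th percentile of genes. All 20 housekeeping genes lie right of the dotted line and all 42 genes of other tissues left of it.

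The receptors for the supplied growth factors were all in the top 25%. Flt3, the receptor for FLT3 ligand (probe set 10535780, chromosome 5), read 10.05 and 10.04 on Control 1 and 2, a mean of 10.04 ± 0.01 (SD, n = 2), at percentile 98.4. Il7r, the alpha chain of the IL-7 receptor (probe set 10427628, chromosome 15), read 9.82 and 9.85, a mean of 9.84 ± 0.03 (SD, n = 2), at percentile 98.0. Kit, the receptor for stem cell factor (probe set 10522530, chromosome 5), read 8.18 and 8.14, a mean of 8.16 ± 0.03 (SD, n = 2), at percentile 89.6. The gaps between arrays were far smaller than the distance of each gene from the olfactory receptor level. Il2rg, the common gamma chain that pairs with Il7r, read 9.38 and 9.37, whereas Crlf2, the chain that pairs with Il7r in the TSLP receptor, read 5.77 and 5.67, at percentile 62.5.

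Signalling genes below these receptors spread over a wider range. All 23 genes read in this list, the receptors included, lay above the olfactory receptor level, against 60.3% of all genes, and 16 (69.6%) were in the top 25%, against 24.5% of all genes. The list's median percentile was 89.4. Socs2, a feedback inhibitor of cytokine signalling, ranked highest at 10.64 and 10.70 (percentile 99.2), and its second probe set read 8.29 and 8.25, also above the 75th percentile. Cish, a related inhibitor induced by STAT5, read 8.14 and 8.13, and the kinase gene Pim1, another STAT5 target, read 9.28 and 9.24. Both lay in the top 25%. The kinase genes differed in place, with Jak1 at 8.41 and 8.44 and Jak2 at 7.57 and 7.62 in the top 25% and Jak3 at 5.10 and 5.21 near the middle of all genes (percentile 57.5). Stat5b, at 7.21 and 7.20, was in the top 25%, and Stat5a, at 6.62 and 6.47, was not. The feedback inhibitors Socs1 (5.4 and 5.10) and Socs3 (4.63 and 4.69) were, with Jak3 and Crlf2, the lowest members.

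Receptors for other cytokines were read more unevenly. Of 38 genes, 32 (84.2%) lay above the olfactory receptor level, against 60.3% of all genes. In the top 25% were 16 (42.1%), against 24.5% of all genes, and the median percentile was 60.2. The highest were Ifnar2, an interferon receptor chain, at 9.61 and 9.59, both chains of the IL-18 receptor (Il18r1 at 9.20 and 9.21, Il18rap at 8.81 and 8.80), and Il10rb at 8.52 and 8.49. Il2rb, the beta chain shared by the IL-2 and IL-15 receptors, was also in the top 25% at 7.76 and 7.82. The receptors named for the macrophage and red-cell lineages ranked below the median of all genes. Csf1r, the receptor of the macrophage growth factor M-CSF, read 3.55 and 3.51 (percentile 39.6), close to the olfactory receptor level. Epor, the erythropoietin receptor, read 4.16 and 3.97, also outside the top 25%. Csf2rb, the beta chain shared by the IL-3, IL-5 and GM-CSF receptors, ranked higher at 6.70 and 6.85 (percentile 74.2). The lowest places belonged to Il1rl1 (2.49 and 2.50), Csf3r (2.99 and 2.67), Tnfrsf11a (3.39 and 3.18) and Il27ra (3.24 and 3.49), of which Il27ra passed the level on 1 array, as Il1r1 did (3.51 and 3.53).

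**Figure D2:**
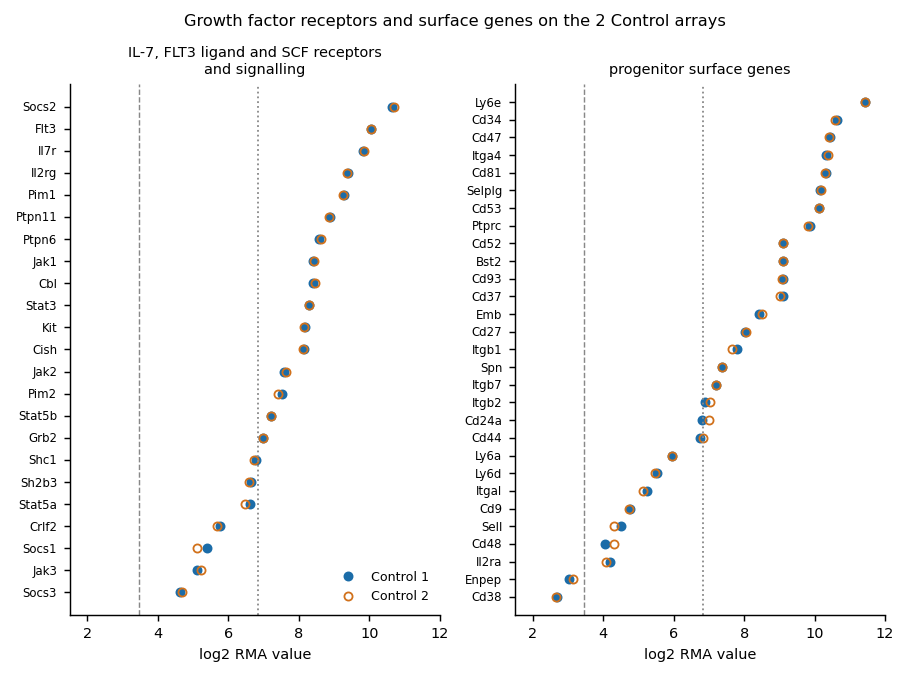
Log2 RMA value (horizontal axis) of each gene read in the list of growth factor receptors and their signalling (left) and of progenitor surface genes (right), with Control 1 as filled blue and Control 2 as open orange points. Dashed line: mean olfactory receptor level; dotted line: mean 75th percentile of genes. Flt3, Il7r, Il2rg and Kit stand right of the dotted line on both arrays, and Cd38 and Enpep stand left of the dashed line.

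Surface genes of early lymphoid progenitors were high as well. Of 29 genes read, 27 (93.1%) lay above the olfactory receptor level, against 60.3% of all genes. In the top 25% were 18 (62.1%), against 24.5% of all genes, and the median percentile was 85.4. Cd34, a surface protein of stem and progenitor cells, read 10.64 and 10.59, a mean of 10.62 ± 0.04 (SD, n = 2). Ptprc, which encodes CD45 including its B220 form, read 9.86 and 9.80, and Cd93, a surface marker of early B-lineage cells recognized by the AA4.1 antibody, read 9.10 and 9.07. Cd27 at 8.03 and 8.05 and Spn, which encodes CD43, at 7.38 and 7.36 completed the defining genes of this list, all of them in the top 25%. The arrays read RNA for Ptprc as a whole, so the B220 form was not measured apart from the others. Ly6e (11.43 and 11.43), Cd47 (10.43 and 10.42) and the integrin gene Itga4 (10.31 and 10.38) were the highest members beside Cd34. At the low end, Cd38 (2.68 and 2.66) and Enpep (3.04 and 3.14), the aminopeptidase known as BP-1 that appears at later B-lineage stages, lay below the olfactory receptor level on both arrays. Il2ra, which encodes CD25 and is known from later pre-B and T-cell stages, read 4.20 and 4.07, and Cd48 read 4.05 and 4.30. Ly6d, a marker of lymphoid progenitors biased to the B lineage, read 5.52 and 5.48 (percentile 60.5), and Cd24a, a surface protein that increases at the pro-B stage, read 6.80 and 6.99, which passed the 75th percentile on Control 2 only.

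The 4 genes chosen to mark these cells, Flt3, Il7r, Kit and Dntt, were thus all in the top 25% on both arrays. Dntt, which encodes the terminal transferase of lymphoid progenitors (probe set 10463123, chromosome 19), read 7.90 and 7.94, a mean of 7.92 ± 0.03 (SD, n = 2), at percentile 87.5. These 4 levels did not go against the label of the cells as lymphoid progenitors, but 4 genes chosen to mark the cells do not test it.

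Regulators of stem and early progenitor cells were split. Of 29 genes, 20 (69.0%) lay above the olfactory receptor level, near the 60.3% of all genes. In the top 25% were 13 (44.8%), against 24.5% of all genes, and the median percentile was 74.0. Myb, a transcription factor needed by lymphoid progenitors, read 10.27 and 10.23 (percentile 98.7). Fli1 (9.09 and 9.13), Runx1 (8.69 and 8.60), Gfi1b (8.56 and 8.62) and Lyl1 (8.49 and 8.48) stood in the top 25% too. Among the 4 defining genes, Hoxa9 read 8.16 and 8.20 and was the only one in the top 25%. Meis1, a partner of Hoxa9, read 5.84 and 6.0, Tal1 read 5.71 and 5.84, and Gata2 read 3.86 and 3.57. Genes with roles in stem cells lay at both ends. Zfx (7.86 and 7.86), Etv6 (7.89 and 7.85), Mycn (7.72 and 7.86) and Bmi1 (7.11 and 7.24) were in the top 25%. Slamf1, which encodes CD150, read 2.19 and 2.22 (percentile 8.2), and Mecom (2.54 and 2.64), Procr (2.96 and 2.62) and Hlf (2.85 and 2.88) also lay below the olfactory receptor level on both arrays. Erg (3.37 and 3.40) and Cdkn1c (3.54 and 3.14) passed it on 1 array only.

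B-lineage transcription factors ranged from the highest percentiles to below the olfactory receptor level. Of 38 genes read, 31 (81.6%) lay above the olfactory receptor level, against 60.3% of all genes. In the top 25% were 15 (39.5%), against 24.5% of all genes, and the median percentile was 63.1. Ikzf1, which encodes Ikaros, read 10.07 and 10.10 (percentile 98.5). Tcf3, which encodes the E2A proteins, read 8.09 and 8.11 (percentile 89.1), and Spi1, which encodes PU.1, read 8.20 and 8.24 (percentile 90.2). Ets1 (5.63 and 5.63), Bach2 (5.11 and 5.18), Id3 (4.02 and 4.43) and Lef1 (3.52 and 3.43) lay outside the top 25%. The other E protein genes were in the top 25% as well, with Tcf12 at 8.47 and 8.51 and Tcf4 at 7.42 and 7.38. Myc (9.99 and 9.99), Mef2c (10.04 and 9.95) and Foxp1 (9.50 and 9.42) ranked with Ikzf1 at the top of the list, and Sox4 (7.47 and 7.47) and Bcl11a (7.49 and 7.38) stood lower within the top 25%. Foxo1, a factor that acts with EBF1 in early B cells, was the low one among the 4 defining genes at 3.76 and 3.70 (percentile 43.0), while its relative Foxo3 read 7.63 and 7.64. Foxo1 was read from 1 probe set, so no second value bears on its level.

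Other factors were near or below the olfactory receptor level. Spib (3.22 and 3.22), Ikzf3, which encodes Aiolos (2.88 and 2.80), Ebf2 (2.83 and 2.81) and Zfp521, a zinc finger protein known to bind EBF1 (2.72 and 2.83), were the lowest members and stayed below it on both arrays. Irf4, which limits pre-B cell growth, read 3.49 and 3.53, and Ebf3 read 3.46 and 3.54; both passed the level on 1 array only. Pou2af1, a coactivator of octamer factors in B cells, read 3.68 and 3.57. Irf8 stood apart from Irf4 and Spib at 6.76 and 6.79 (percentile 74.2).

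The 2 genes whose products the series supplied by vector were both read in these Control cells. Pax5 read 4.93 and 5.10, a mean of 5.02 ± 0.13 (SD, n = 2), at percentile 56.4, above the olfactory receptor level and below the 75th percentile. Ebf1 read 8.87 and 8.87 (probe set 10375360, chromosome 11), at percentile 94.5, although the line is labelled Ebf1-/-. A second Ebf1 probe set (10375358) read 4.70 and 4.75. Where either probe set lies with respect to the deletion is not known from the labels or files, so neither level checks the knockout, and the probe sets disagree by more than 4 on the log2 scale.

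**Figure D3:**
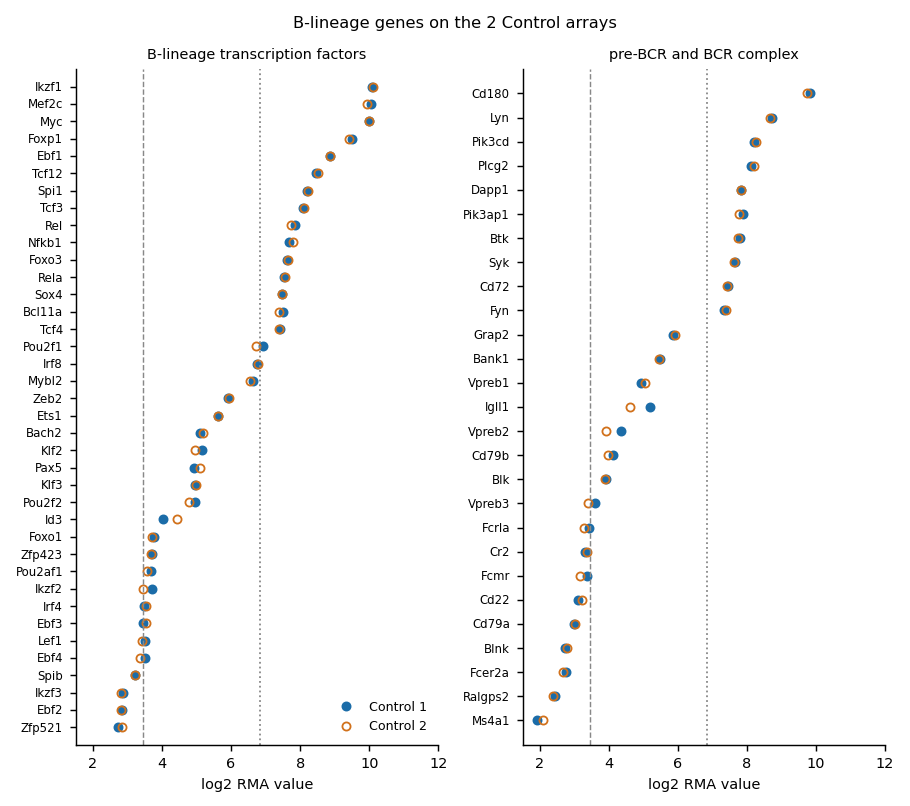
Log2 RMA value (horizontal axis) of the genes reported from the lists of B-lineage transcription factors (left) and of the pre-BCR and BCR complex (right), with Control 1 as filled blue and Control 2 as open orange points. Dashed line: mean olfactory receptor level; dotted line: mean 75th percentile of genes. Ikzf1, Spi1 and Tcf3 lie right of the dotted line, Pax5, Igll1 and Vpreb1 between the lines, and Cd79a, Blnk and Ms4a1 left of the dashed line.

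Genes of the pre-B cell receptor divided into its own chains and the kinases below it. Of 28 genes, 18 (64.3%) lay above the olfactory receptor level, near the 60.3% of all genes. In the top 25% were 10 (35.7%), against 24.5% of all genes, and the median percentile was 52.0. The surrogate light chain genes were near the middle of all genes. Igll1 read 5.2 and 4.62, a mean of 4.91 ± 0.41 (SD, n = 2) and a gap exceeded among listed genes by Ighm alone, Vpreb1 read 4.94 and 5.06, and Vpreb2 read 4.36 and 3.91. Vpreb1 and Vpreb2 are near-identical, so their separate levels are uncertain. The signalling chains were lower, with Cd79b at 4.11 and 3.98 and Cd79a at 3.0 and 3.01, which was below the olfactory receptor level on both arrays. Blnk, the adaptor that links the receptor to its kinases, was below it too (2.73 and 2.80). Ms4a1, which encodes CD20 (1.93 and 2.08), Ralgps2 (2.45 and 2.37) and Fcer2a (2.76 and 2.68) completed the low end.

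The 10 members of that list in the top 25% were kinases, other signalling proteins or surface receptors, many of which cells outside the B lineage also use. Lyn, a Src-family kinase, read 8.71 and 8.68, Btk 7.81 and 7.75, and Syk 7.64 and 7.61. Plcg2, a phospholipase, read 8.11 and 8.20, and Pik3cd, a catalytic subunit of PI3-kinase, 8.21 and 8.27. Cd180, a surface protein related to Toll-like receptors, was the highest at 9.83 and 9.75 (percentile 98.0). Blk, a Src-family kinase used mainly by B cells, read 3.93 and 3.88 and did not join this group.

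The recombination machinery was present at the RNA level. Of 21 genes, 20 (95.2%) lay above the olfactory receptor level, against 60.3% of all genes. In the top 25% were 10 (47.6%), against 24.5% of all genes, and the median percentile was 74.8. Rag2, a subunit of the recombinase, read 8.97 and 8.96, and its second probe set read 8.36 and 8.46. Rag1, the other subunit, read 6.53 and 6.54 (percentile 71.3), just under the top 25%. Hmgb1 (11.27 and 11.22) and Hmgb2 (10.51 and 10.53), DNA-bending proteins that assist the recombinase, headed the list with Rag2 and the histone gene H2ax (8.60 and 8.66). Hmgb1 was annotated to many probe sets, and sequences shared with copies elsewhere in the genome make its level uncertain. End-joining genes ranked lower, with Lig4 at 5.14 and 5.18, Nhej1 at 5.01 and 4.93 and Xrcc5, which encodes Ku80, at 5.80 and 5.82, whereas Xrcc6, which encodes Ku70, was in the top 25% at 8.09 and 8.09. Polm, a polymerase of the end-joining pathway, was the only member below the level on both arrays (3.22 and 3.13).

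Few antigen receptor genes could be read under a single symbol, so the loci were also read by probe set. Jchain, which encodes the joining chain of secreted antibodies, read 10.78 and 10.90 (mean 10.84 ± 0.08, SD, n = 2; percentile 99.3). Ighm, the constant region of the mu heavy chain, read 4.40 and 3.78 (mean 4.09 ± 0.43, SD, n = 2), with the widest gap of any listed gene. Of 10 heavy-chain probe sets, 6 lay above the olfactory receptor level, which 60.3% of all genes passed. The share of all probe sets above that level was not computed. Above the 75th percentile of all probe sets were 3 of the 10, near the 25% that this cut sets. Each of these 3 named Ighv1-72, and the highest read 7.53 and 7.39. Of 12 kappa probe sets, 2 lay above the olfactory receptor level and 0 in the top 25% of probe sets. The highest kappa probe set read 4.04 and 3.98, below the median of all probe sets (4.16 and 4.12). The gamma chain locus of the T-cell receptor stood apart from these. All 3 of its probe sets were in the top 25% of probe sets, and the highest, annotated to Tcrg-V2 and Tcrg-V3, read 11.52 and 11.52. The constant region, Tcrg-C, read 10.24 and 10.15. Of the 19 alpha or delta probe sets, 13 lay above the olfactory receptor level and 0 in the top 25% on both arrays. The single beta probe set, annotated to Tcrb-J and to another symbol, read 3.64 and 3.39. These probe sets report RNA over a segment and do not show whether the locus was rearranged.

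T-lineage genes were seldom high. Of 36 genes, 27 passed the olfactory receptor level, against 60.3% of all genes, and 4 (11.1%) were in the top 25%, against 24.5%, with a median percentile of 48.2. With the 99th percentile of the olfactory receptor genes as the level, 14 passed, against 45.0% of all genes. Those 4 were Satb1, a chromatin organizer of lymphoid cells (10.01 and 10.04), Ly9 (7.94 and 7.87), and the Notch receptor genes Notch2 (7.15 and 7.08) and Notch1 (7.06 and 7.02). The 4 defining genes lay within a narrow band just above the olfactory receptor level. Cd3e read 3.65 and 3.69, Cd4 3.52 and 3.55, Cd8a 3.84 and 3.61, and Bcl11b, a factor of T-cell commitment, 3.58 and 3.52. Gata3, which directs T and innate lymphoid cells, read 5.41 and 5.61 (percentile 60.5), while Tcf7, another early T-lineage factor, read 3.79 and 3.73 (percentile 43.4). The signalling genes Lck (6.82 and 6.72), Zap70 (6.56 and 6.58) and Lat (6.60 and 6.54) ranked above the median of all genes. Themis (2.34 and 2.16), Trat1 (2.55 and 2.35), Il2 (2.54 and 2.55) and Cd3d (2.70 and 2.57) were the lowest, and Thy1 (3.59 and 3.23) passed the level on 1 array only.

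NK and innate lymphoid genes fell into separate groups. Of 29 genes, 13 lay above the olfactory receptor level and 7 (24.1%) in the top 25%, shares close to or below those of all genes, and the median percentile was 35.1. Fcer1g (10.79 and 10.76) and Tyrobp (10.75 and 10.75), adaptors that myeloid and dendritic cells also use, headed the list with Il18r1 and Tox (9.11 and 9.08). Id2, an inhibitor of E proteins that is central to innate lymphoid cells, read 8.65 and 8.69 (percentile 93.4), and Nfil3, which acts before it in that lineage, read 8.26 and 8.31. Klrd1, which encodes CD94, was the other member of the top 25% (8.43 and 8.51). Of the defining genes, Zbtb16 (6.37 and 6.43) and Klrb1c, which encodes NK1.1 (5.59 and 5.51), lay above the olfactory receptor level, but Eomes (2.84 and 2.84) and Ncr1 (2.22 and 2.18) did not. Effector genes were divided and all outside the top 25%. Gzma (2.49 and 2.76), Gzmb (2.41 and 2.36), Gzmk (2.96 and 2.89), Il5 (2.47 and 2.42) and Ifng (3.29 and 3.29) lay below the olfactory receptor level. Il13 (4.65 and 4.63) and Prf1 (3.73 and 3.59) lay above it. Klrg1 (2.14 and 1.94), Klrc1 (2.07 and 2.09) and Klrk1 (2.22 and 2.39) shared the low end with Ncr1, and Tbx21, which encodes T-bet, passed the level on 1 array only (3.45 and 3.48).

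Some genes known from plasmacytoid dendritic cells were high. Of 24 dendritic cell and MHC class II genes read, 18 lay above the olfactory receptor level, against 60.3% of all genes. In the top 25% were 6 (25%), close to the 24.5% of all genes, and the median percentile was 60.7. Cox6a2, a respiratory chain subunit known from these cells and from muscle, read 11.42 and 11.41 (percentile 99.8). Siglech, a surface marker of plasmacytoid dendritic cells, read 9.07 and 9.11, a mean of 9.09 ± 0.03 (SD, n = 2), at percentile 95.6. Runx2 read 8.54 and 8.48, but its second probe set read 5.94 and 6.01, and Tcf4, the E protein gene that directs this lineage, was in the top 25% as given above. Flt3 and Id2 complete the 6 and belong to other lists as well. Other genes linked to these cells were lower, with Tlr7 at 6.15 and 5.91, Irf7 at 5.27 and 5.37 and Tlr9 at 4.77 and 4.77. The class II genes were spread. H2-Aa (2.49 and 2.83), H2-Ab1 (2.42 and 2.70) and the activator gene Ciita (3.28 and 3.15) lay below the olfactory receptor level, H2-Eb1 (3.57 and 3.77) just above it, and H2-DMa, which assists peptide loading (6.80 and 6.79), at percentile 74.4. Cd74, the invariant chain, read 6.07 and 5.75. Itgax, which encodes CD11c, read 3.80 and 3.82, and Clec9a (2.13 and 2.12) and Xcr1 (2.64 and 2.61), genes of conventional dendritic cells, were at the bottom with H2-Aa and H2-Ab1. Further genes known from conventional or monocyte-derived dendritic cells lay above the olfactory receptor level, with Cd209a at 5.66 and 5.79, Batf3 at 5.22 and 5.13 and Zbtb46 at 3.66 and 3.59. The second Cd209a probe set read 3.01 and 2.8, below that level on both arrays.

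**Figure D4:**
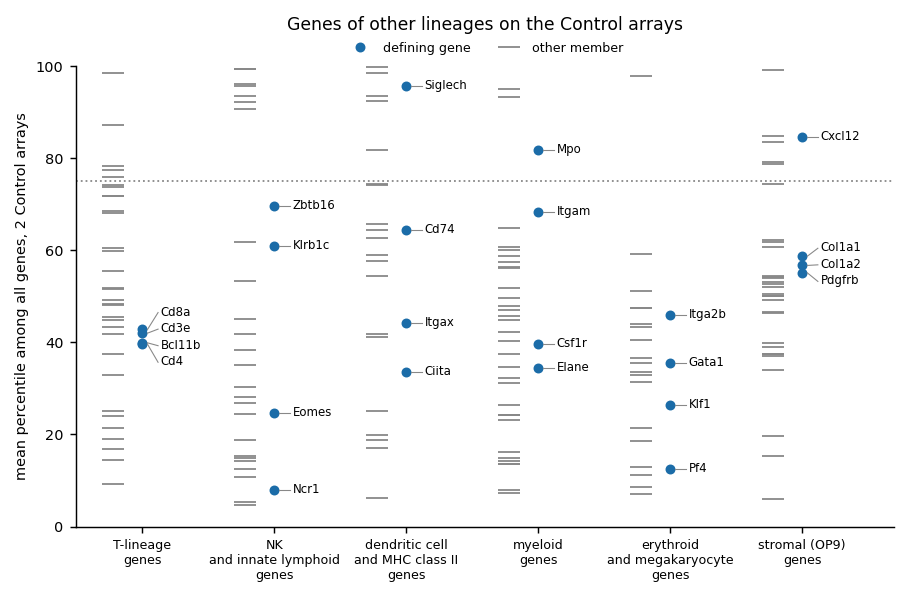
Mean percentile among all genes over the 2 Control arrays (vertical axis) for the 4 defining genes (blue, named) and the other members (grey) of 6 lineage lists. The dotted line is the 75th percentile. Siglech, Mpo and Cxcl12 are the defining genes above it, at percentiles 95.6, 81.7 and 84.6.

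Myeloid genes were low apart from a few. Of 37 genes read, 20 (54.1%) lay above the olfactory receptor level, against 60.3% of all genes. On both arrays 16 lay below it, against 36.8% of all genes. With the 99th percentile of the olfactory receptor genes as the level, 11 passed, against 45.0% of all genes. In the top 25% were 3 (8.11%), against 24.5% of all genes. The 3 were Fcgr3, a low-affinity Fc receptor (8.98 and 9.00), the chemokine receptor gene Ccr2 (8.55 and 8.73) and Mpo. Mpo, a granule enzyme of early myeloid progenitors, read 7.39 and 7.41 (percentile 81.7). Its companion granule gene Elane read 3.43 and 3.10, below the level. Itgam, which encodes CD11b, read 6.29 and 6.29 (percentile 68.4), and Cebpa, the factor that directs granulocyte and monocyte formation, read 3.6 and 3.78. Ly6g (2.25 and 2.07), Mmp8 (2.30 and 2.09), Ltf (2.50 and 2.34) and Ngp (2.49 and 2.35), genes of mature neutrophils, were the lowest, and S100a8 passed the level on 1 array only (3.33 and 3.50).

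Few erythroid and megakaryocyte genes read under a single symbol were high. Of 23 such genes, 8 (34.8%) lay above the olfactory receptor level, against 60.3% of all genes. With the 99th percentile of the olfactory receptor genes as the level, 2 passed, against 45.0% of all genes. The median percentile was 35.5, and 1 gene (4.35%) was in the top 25%, against 24.5% of all genes. That gene was Tfrc, the transferrin receptor, which all dividing cells use (9.77 and 9.79). Gp9 (5.34 and 5.34) and Ermap (4.54 and 4.25) followed at a distance with Epor. Among the defining genes, Itga2b, which encodes CD41, read 4.01 and 3.85, while Gata1 (3.34 and 3.28), Klf1 (2.94 and 2.87) and Pf4 (2.31 and 2.46) lay below the level on both arrays. Rhag (2.21 and 2.09) and the embryonic globin gene Hbb-bh1 (2.24 and 2.42) were at the low end with Pf4, and Hba-x passed the level on 1 array only (3.45 and 3.73). The adult beta-globin genes differed from these red-cell genes and are not in the counts, since their probe sets carry several symbols. A probe set shared by Hbb-b1 and Hbb-b2 read 7.98 and 7.97, another read 7.90 and 7.82, and a probe set shared by Hba-a1 and Hba-a2 read 5.10 and 5.06. The shared probe sets cannot separate the gene copies.

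Genes of the OP9 stroma were read because those cells surrounded the line in culture, before the sort. Of 34 genes, 26 lay above the olfactory receptor level, against 60.3% of all genes, and 6 (17.6%) in the top 25%, against 24.5%, with a median percentile of 52.9. With the 99th percentile of the olfactory receptor genes as the level, 13 passed, against 45.0% of all genes. Their linear signals summed to 3177 on Control 1 and 3202 on Control 2, of which Vim alone gave 1596 and 1623. These sums add probes of unlike brightness and include members below the olfactory receptor level, so they are not shares of RNA. Vim, an intermediate filament gene that blood cells also express, read 10.64 and 10.66 (percentile 99.2). Bgn (7.67 and 7.66), Cxcl12, a chemokine of marrow stroma (7.67 and 7.63), and S100a6 (7.51 and 7.60) were next. The collagen genes Col1a1 (5.33 and 5.26) and Col1a2 (5.11 and 5.01) and the receptor gene Pdgfrb (4.83 and 4.85) lay above the olfactory receptor level and outside the top 25%. Lum (2.06 and 2.16), Il7 (2.41 and 2.58), Postn (2.73 and 2.59) and Vcam1 (3.22 and 3.27) lay below it, and Cav1 passed it on 1 array only (3.75 and 3.34). The part of stromal RNA in the levels of genes that both cell types can express was not tested.

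Genes that guide the homing of progenitors were mixed. Of 24 chemokine receptor and homing genes, 21 (87.5%) lay above the olfactory receptor level, against 60.3% of all genes. With the 99th percentile of the olfactory receptor genes as the level, 13 passed, against 45.0% of all genes. In the top 25% were 8 (33.3%), against 24.5% of all genes, and the median percentile was 60.8. Itga4, Selplg, the ligand of P-selectin (10.15 and 10.18), Itga6 (9.00 and 9.08) and Cxcr4, the receptor for the stromal chemokine CXCL12 (8.64 and 8.75), were the highest. The other defining genes were S1pr1 at 6.83 and 6.88, Ccr7 at 6.28 and 6.09 and Ccr9, a receptor used in thymic homing, at 5.96 and 5.88, all outside the top 25%. Ccr1 (2.30 and 1.81), Ackr3 (2.78 and 2.80) and Cxcr3 (3.46 and 3.17) were the only members below the level on both arrays, and Ccr6 (3.93 and 3.80) was next above them.

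Of 15 genes of the BCL2 family, 13 (86.7%) lay above the olfactory receptor level, against 60.3% of all genes. In the top 25% were 6 (40.0%), against 24.5% of all genes, and the median percentile was 64.4. Bcl2, the survival gene, read 9.79 and 9.82 (percentile 98.0) on the probe set used and 6.72 and 6.85 on the other. Mcl1, a survival gene that early lymphocytes require, read 8.85 and 8.97. Genes that promote cell death stood beside them in the top 25%, with Bak1 at 9.36 and 9.38 (4.71 and 4.59 on its second probe set), Bcl2l11, which encodes BIM, at 7.68 and 7.73, and Bax at 7.65 and 7.67. Bik (3.35 and 3.23) and Bcl2a1c (2.48 and 2.34) lay below the olfactory receptor level, with Bok (4.45 and 4.47) and Bbc3, which encodes PUMA (4.57 and 4.57), next above them.

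The cell cycle list had the largest share in the top 25% after housekeeping genes, 32 of 36 genes (88.9%), against 24.5% of all genes. All 36 lay above the olfactory receptor level, against 60.3% of all genes. The list's median percentile was 93.3. Cdk4 (10.48 and 10.51), Cdk6 (9.46 and 9.49), and the replication clamp gene Pcna (10.38 and 10.34) were at the top with Top2a (9.65 and 9.65). A second probe set annotated to Top2a read 1.88 and 1.85. The mitotic genes Cdk1 (9.24 and 9.24), Ccnb1 (8.94 and 8.91) and Mki67 (8.77 and 8.73) were in the top 25%. Among the D cyclins, Ccnd2 read 9.38 and 9.38 and Ccnd3 8.08 and 8.09, while Ccnd1 was the lowest member of the list at 4.65 and 4.74. The inhibitor genes Cdkn1a (9.24 and 9.24) and Cdkn1b (8.18 and 8.32) were in the top 25%, and Cdkn2a (6.53 and 6.32), E2f1 (6.18 and 6.16) and Cdkn2b (4.91 and 4.98) were not.

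**Figure D5:**
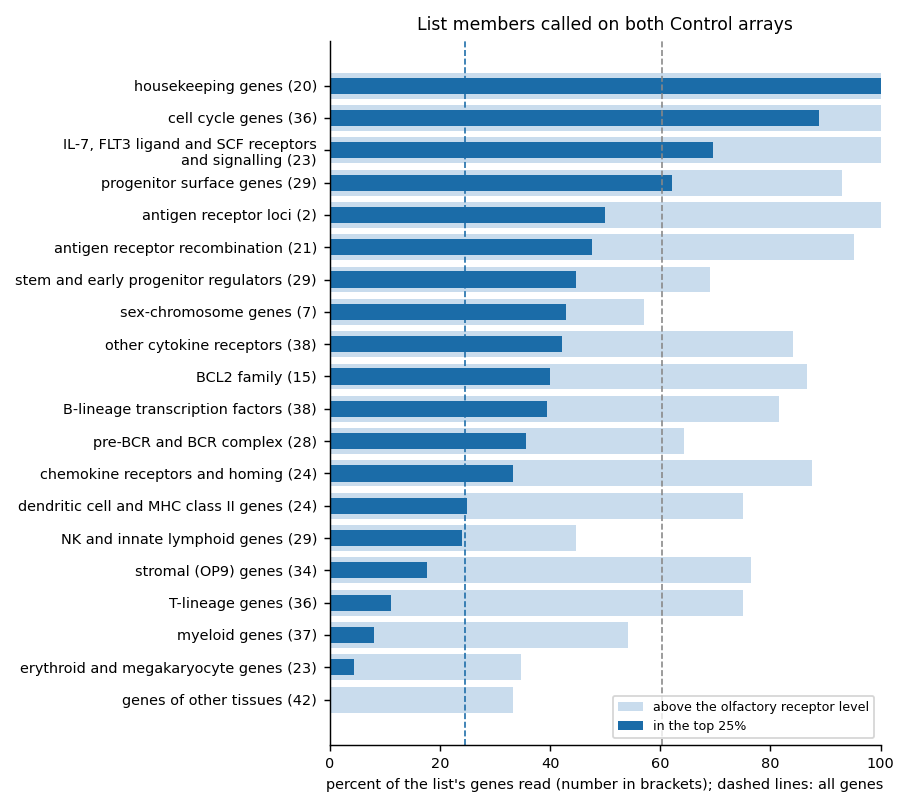
Percent of the genes read in each of 20 lists (number read in brackets) that lay above the olfactory receptor level (light bars) or in the top 25% (dark bars) on both Control arrays, ordered by the dark bars. Dashed lines give the same for all 20586 genes, 60.3% (grey) and 24.5% (blue). Housekeeping genes fill the dark bar, growth factor receptors and signalling 69.6%, myeloid genes 8.11%, and genes of other tissues 0.0%.

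Housekeeping genes and genes of other tissues show the ends of the scale. All 20 housekeeping genes read were in the top 25%, with Actb highest (11.84 and 11.84), Eef1a1 (11.81 and 11.81), Rplp0 (11.62 and 11.64) and Gapdh (11.74 and 11.78) beside it, and Ppia (11.39 and 11.43) and B2m (11.10 and 11.17) close to them. Tbp (7.35 and 7.15), Gusb (8.33 and 8.35) and Sdha (8.80 and 8.82) were at the low end. Genes of other tissues had a median percentile of 31.3. The highest of them were Mbp (5.39 and 5.38), Krt10 (4.68 and 4.37), Lhb (4.34 and 4.48) and Apoa1 (4.36 and 4.43). The albumin gene Alb (2.58 and 2.75) and Gfap (2.85 and 3.05) lay below the olfactory receptor level, Ins2 (3.71 and 3.67) lay just above it, and Myh6 (3.63 and 3.33), Gcg (3.46 and 3.51) and Nphs1 (3.42 and 3.56) passed it on 1 array only. Cyp3a11 (1.78 and 1.90), Neurod1 (2.17 and 2.08), Cyp2e1 (2.16 and 2.24) and Slc5a1 (2.51 and 2.47) were the lowest. Of 7 sex-chromosome genes, the Y-linked Eif2s3y (8.29 and 8.39), Ddx3y (7.76 and 7.79) and Kdm5d (7.76 and 7.62) were in the top 25% and Uty (6.77 and 6.80) just outside it. Xist, the RNA of the inactive X chromosome, read 2.94 and 2.59, below the olfactory receptor level, as did Zfy1 (2.46 and 2.25) and Usp9y (2.17 and 2.14).

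Genes for microRNAs, read as their precursor transcripts and not as mature microRNAs, were mostly low. Of 308 read, 116 lay above the olfactory receptor level, where 60.3% of all genes did. In the top 25% were 5, where 24.5% of all genes were. Members of the cluster of Mir17 and its neighbours, known to act in early B-cell growth and to lower the BIM protein, are shown. Those given need not be the whole cluster. They are shown because some share seeds while their precursors fell on both sides of the olfactory receptor level. The mature sequences are those of RefSeq on GRCm38.p6, all on the plus strand of chromosome 14, with bases 2 to 8, the seed, in capitals.
miR-17-5p, chr14:115043684-115043706: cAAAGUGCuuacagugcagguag
miR-18a-5p, chr14:115043867-115043889: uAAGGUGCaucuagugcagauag
miR-19a-3p, chr14:115044048-115044070: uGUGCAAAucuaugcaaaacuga
miR-20a-5p, chr14:115044183-115044205: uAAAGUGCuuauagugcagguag
miR-19b-3p, chr14:115044358-115044380: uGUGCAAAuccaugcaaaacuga

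miR-17-5p and miR-20a-5p share the seed AAAGUGC, and miR-19a-3p and miR-19b-3p share GUGCAAA. The probe set of Mir17 read 7.01 and 7.03, in the top 25%, and that of Mir20a read 4.72 and 4.77, outside it. Mir19b-1 read 5.27 and 4.99, whereas Mir19a read 2.37 and 2.4, below the olfactory receptor level. Mir18, which gives miR-18a, read 6.42 and 6.42. Probe sets over such short precursors need not report them with equal brightness, so this order is not one of RNA amount.

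The 15 genes with the highest levels were genes of protein synthesis and a few others. Ribosomal protein genes made up 9 of these 15 and 62 of the highest 100. Rplp1 read 12.08 and 12.08, Rps29 12.04 and 12.07, Rpl32 12.02 and 12.00, and Rpl41 11.94 and 11.93, with Rpl11, Rpl37, Rps15a, Rpl28 and Rps28 between 11.72 and 11.90. Probe sets annotated to the ribosomal RNAs Rn28s1 (12.31 and 12.27) and Rn18s (11.96 and 12.00) were also among them, as were Mif, a cytokine gene (11.89 and 11.90), Actb, Eef1a1 and Gapdh. Of the 10 genes with the widest gap between the arrays, 7 had a mean below 4. Such low values were common, since the median of all genes was 4.31 on Control 1 and 4.26 on Control 2. Gm5039 differed most (1.67 and 2.76), followed by Olfr161 (3.79 and 2.86) and Oas1a, an interferon-induced gene (3.66 and 4.56). Olfr1331 (2.91 and 2.10), Elovl3 (3.01 and 2.22), 4933440M02Rik (2.42 and 3.21), Gm5114 (3.89 and 3.11), Bglap (4.93 and 4.15), Olfr527 (5.09 and 4.32) and Dppa5a (2.85 and 3.61) completed the 10. None of these 10 is in a gene list.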

How the data were processed

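The authors deposited log2 expression values after RMA for 28350 probe sets of 6 mouse Affymetrix arrays; RMA and Partek 6.5 are named in the submitters' processing notes, while the sources used here give neither RMA's options nor the genome build of the probe annotation. Each array took 50 ng of total RNA, amplified and labelled, per the labels' protocols. The values of both deposited tables were equal, so 1 was used. Symbols came from the deposited annotation, updated by gene identifier through a RefSeq table (GRCm38.p6): 23209 probe sets had 1 symbol (22377 matched RefSeq), 2045 several and 3096 none. The annotation text stops at 255 characters, so some of the first kind may hold more symbols. Only probe sets with 1 symbol were read as genes, and of several probe sets of a gene the one with the highest mean over 6 arrays was used.

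With python 3.11.15, pandas 2.3.3 and numpy 2.4.6, levels, percentiles, SDs and counts were computed on the Control arrays, and no test was run, since a single group is described. The classing code was run on simulated data with silent and expressed genes set far apart. That run checked the code and not how well the level separates real genes. The 20 lists hold 554 distinct genes, of which 515 were read, 15 sat on probe sets with several symbols and 24 were not found under a single symbol, some because they are older names of a gene already listed. The genes named were the 4 markers, 4 defining genes of each list, the 4 members at each end of each list, members above the olfactory receptor level on 1 array only, the 15 highest genes and the 10 widest gaps; other members named beside these, the top 25%, the microRNA cluster and the antigen receptor probe sets were chosen after values were seen. The members and lists were chosen with earlier results of these data known. A few listed genes are counted in their lists and not reported here by name.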

Additional observations from a re-analysis of the deposited data

How the results depend on the processing

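No paired analysis was possible because the report describes a single group and makes no comparison between groups. The count of genes above the olfactory receptor level stayed within 1.5 times of 12419 under every alternative run. The background level was the choice that moved list counts. Of all genes, 45.0% passed the 99th percentile of the olfactory receptor genes and 50.7% the median of all probe sets. The 95th percentile of genes of other tissues was passed by 47.8% of all genes, and that of vomeronasal and taste receptor genes by 69.9%. With the 99th percentile of the olfactory receptor genes, the members above it numbered 1 for antigen receptor loci, 14 for T-lineage genes, 11 for myeloid, 2 for erythroid and megakaryocyte, 13 for stromal, 13 for chemokine receptor and homing genes and 1 for genes of other tissues. With the median of all probe sets they were 1, 16, 13, 3 and 7 for antigen receptor loci, T-lineage, myeloid, erythroid and megakaryocyte genes and genes of other tissues. With the 95th percentile of genes of other tissues, added after seeing the data, these were 1, 14, 11, 2 and 1. The last of these counts follows from the setting, since the same genes define that level. With vomeronasal and taste receptor genes as the yardstick, erythroid and megakaryocyte genes above it were 15 and genes of other tissues 23. The top 25% as a class, also added after seeing the data, held 11 T-lineage genes when widened to the top 33% and 7 with the probe set of lowest mean. The probe set highest on the Control arrays, the mean of probe sets, probe sets with several symbols and a repeated quantile normalization kept all list counts within 1.5 times. Leaving out Control 1 or Control 2 left every list count within 1.5 times, with 12824 and 12612 genes above the level. Of 76 percentiles of defining genes, Bcl2 and Top2a moved by more than 5 points, to 76.0 and 2.2 with their lowest probe sets and to 91.4 and 63.6 with the mean of their probe sets; the largest shift without an array was 3.9. Signal near the olfactory receptor level cannot separate low expression from background here.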

Other observations

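Genes outside the lists that stood high on both Control arrays, chosen after their values were seen, included several that immature lymphoid and dendritic cells are known to use. Plac8 read 10.90 and 10.93, Laptm5, a lysosomal membrane protein of blood cells, 11.30 and 11.29, and Tspan13 10.91 and 10.90. P2ry14, a receptor for UDP-glucose found on progenitors, read 9.10 and 9.11, and its neighbouring receptor gene Gpr171 read 9.85 and 9.84. Clec2i (9.87 and 9.88) and Klrb1f (8.64 and 8.66), a lectin gene and a lectin-like receptor gene of the NK gene complex, were in the top 25%, beside the low Ncr1 and Klrg1. H2-Ob, a class II chain that modulates peptide loading, read 9.21 and 9.19, although H2-Aa and H2-Ab1 lay below the olfactory receptor level.

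Other high genes have varied known uses. Myl10, a myosin light chain gene known from lymphoid precursors, read 11.30 and 11.25 (percentile 99.7). Foxf1, a mesenchymal transcription factor, read 9.54 and 9.54, and Gfra1, a receptor subunit for the neurotrophic factor GDNF, read 9.14 and 9.12. Il12a, a subunit of IL-12, read 9.07 and 8.98.

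Among probe sets without a gene symbol, the highest was annotated to mouse mammary tumour virus, a retrovirus with inherited copies in mice, and read 12.19 and 12.19. The 11 probe sets with such an annotation all read 7.50 or more.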
